A study of Arabidopsis thaliana with 27 samples.

Results

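The 69 plastid-encoded genes of Arabidopsis thaliana described here are those with a probe set that the array's annotation ties to 1 gene symbol and whose locus lies on the plastid genome. They are 69 of 13286 genes tested. The gene table used for names holds 84 plastid loci under 78 symbols, and 8 more plastid probe sets list 2 gene entries and were left out of the tests. By role, 43 of the 69 code for photosynthesis proteins, 15 for ribosomal proteins, 4 for the plastid RNA polymerase and 7 for other proteins. Every member has 1 probe set, and none of these carries a suffix that marks cross-hybridisation.

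RNA came from callus of the Columbia ecotype, grown for 6 days on callus-inducing medium from hypocotyls of seedlings 12 days old. The callus was sampled 0, 3 and 6 days after its transfer to shoot-inducing medium. Each time was taken in the lba1-1/upf1-1 mutant (upf1-1 below), in the upf3-1 mutant and in wild type Col-0, with 3 Affymetrix arrays in each of the 9 groups. As background, lba1-1 is a missense allele of UPF1 and upf3-1 an insertion allele of UPF3, and both genes act in nonsense-mediated mRNA decay, which removes cytosolic transcripts with a premature or unusually placed stop codon. The series asks which genes the upf mutations affect. Callus kept on the first medium for the same times was not among the samples, so medium and time cannot be told apart.

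Plastids keep a small genome of bacterial descent, which codes for core subunits of the photosynthetic complexes, for part of the plastid ribosome and for the core of a bacterial-type RNA polymerase. The other subunits are encoded in the nucleus. Photosynthesis genes are transcribed mainly by the bacterial-type polymerase, while its own rpo genes, accD and some other housekeeping genes are transcribed mainly by phage-type polymerases that the nucleus encodes. Many plastid genes are transcribed together and cut into smaller RNAs afterwards, and plastid transcripts mostly lack the long poly(A) tails of cytosolic mRNAs. In callus, plastids are poorly developed, and greening accompanies shoot formation.

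Signals are log2 values from arrays brought to a common distribution, which hides any shift that most transcripts share, and levels are not compared between probe sets. Mean signals of the members ran from 2.68 to 12.35. Of the 69, 64 lay at or above 3.72, the 25th percentile of all genes, and rpoB, petG, psaC, ndhE and ndhF lay below it. All 27 arrays lay nearest an array of their own group. One array, upf1-1 day 0 replicate 1, has a title that names both genotypes; its other labels give upf1-1, under which it was used, and the day 0 results are given with and without it. The labels do not say that replicates are separate cultures, so p-values reflect the spread among these samples, which may be technical. UPF3 itself lay between 5.70 and 6.38 in upf3-1 and between 8.98 and 9.14 in wild type, and UPF1 was not analysed here. Of 10 listed callus founder genes 4 were measured, LBD16, LBD29, PUCHI and BBM, and all 4 were called lower on both later days in every genotype. Against wild type, 1 was called higher and 1 lower in upf1-1 on day 0, and 2 lower in upf3-1 on day 6. Of 5 listed root hair genes, EXPA7 and EXPA18 were measured, and both were called higher on both later days in every genotype, with a wild type day 6 median of 3.39. Against wild type, EXPA7 was called higher in upf3-1 on day 0, by 1.23, and lower in upf1-1 on day 6, at -0.63. Of 6 listed stomatal lineage genes, SPCH, MUTE and FMA were measured, with group means between 2.86 and 3.58 and 0 calls by limma. The part of these cell types in the plastid results was not tested. In bulk callus, fewer plastids or cells of a type and less RNA per plastid cannot be told apart.

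In upf1-1, 12, 21 and 11 of the 43 photosynthesis genes and 5, 7 and 7 of the 15 ribosome genes were called higher than in wild type on days 0, 3 and 6, and 0 of the 4 polymerase genes were called on any day. On day 0, 18 of the 69 genes were called higher and 1, rbcL, lower. On day 3, 30 were called higher and 0 lower, and on day 6, 19 higher and 0 lower. A gene is called at a limma adjusted p under 0.05 over all genes tested. At that threshold 9.27%, 9.86% and 10.5% of all genes were higher in upf1-1 at the 3 times, so 0 of 4 polymerase genes is near that share. Lower calls covered 7.84%, 7.32% and 7.24% of all genes on these days, and calls in either direction 17.1%, 17.2% and 17.7%. The median log2 fold change of the 69 genes by day was 0.25, 0.33 and 0.23, beside medians over all genes of -0.03, -0.01 and -0.02.

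The mean over the 69 genes was also taken on each array. On day 0 it was 8.11, 7.87 and 7.83 in upf1-1, against 7.90, 7.70 and 7.58 in wild type. On day 3 it was 7.70, 7.85 and 7.82 in upf1-1, against 7.58, 7.45 and 7.41 in wild type, and on day 6 it was 7.90, 7.62 and 7.75 against 7.52, 7.65 and 7.47. The arrays of the 2 genotypes were apart on day 3 and overlapped on days 0 and 6. The 2 arrays with the highest mean on day 0 were replicate 1 of upf1-1 and replicate 1 of wild type.

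**Figure D1:**
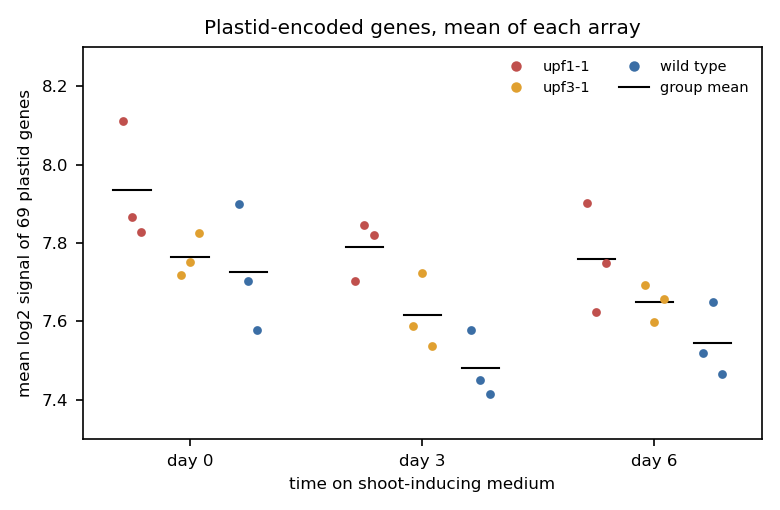
Mean log2 signal of the 69 plastid genes (vertical axis) on each of the 27 arrays, by day on shoot-inducing medium (horizontal axis); points are arrays, coloured by genotype, and black lines are group means. On day 3 the 3 upf1-1 arrays lie between 7.70 and 7.85, above the 3 wild type arrays at 7.41 to 7.58, while the groups overlap on days 0 and 6.

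These counts rest on 3 arrays a group, and single arrays moved them. Here and below, counts over all genes with an array left out are not given. Whether the calls over all genes moved alike is therefore not shown. Without upf1-1 day 0 replicate 1, the array with the divided title, 9 genes were called higher on day 0 and 1 lower, all 9 were among the 18, and the median was 0.17. Without wild type day 0 replicate 2, 11 were called higher. On day 3, 17 were called without wild type replicate 3. On day 6, 10 were called without wild type replicate 1, 12 without wild type replicate 3 and 11 without upf1-1 replicate 1. Genes called whichever array was left out numbered 8, 16 and 8 by day.

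In upf3-1, on day 0, 6 of the 69 genes were called higher and 2 lower, on day 3, 14 higher and 2 lower, and on day 6, 11 higher and 0 lower. Among all genes, 8.41%, 10.9% and 9.82% were called higher in upf3-1 on days 0, 3 and 6, and 6.9%, 11.6% and 8.57% lower, or 15.3%, 22.5% and 18.4% in either direction. The day 0 count is thus near the share of all genes. Of the 43 photosynthesis genes, 4, 7 and 5 were called higher in upf3-1 by day. These are 9.3%, 16.3% and 11.6% of the 43, near the share of all genes on days 0 and 6. The median of the 69 was 0.06, 0.17 and 0.09 on the 3 days, and on day 0 it was -0.03 without wild type replicate 3. The day 0 calls numbered 3 without upf3-1 replicate 2, 5 without wild type replicate 2 and 4 without wild type replicate 3. On day 3 they numbered 8 without wild type replicate 3, and on day 6 they numbered 7 without wild type replicate 1 or without replicate 3.

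Signs of RNA quality were mixed. The log2 difference between the 3′ and 5′ probe sets of GAPDH, which grows as RNA degrades, averaged 0.54 in upf1-1, 0.55 in upf3-1 and 0.70 in wild type on day 0. On day 3 it averaged 0.59, 0.47 and 0.65 in the same order, and on day 6 it averaged 0.39, 0.44 and 0.57, so that both mutants were below wild type. The same measure for actin averaged 3.24, 3.26 and 3.25 on day 0. By day 3 it averaged 3.49, 3.32 and 3.21, and the day 6 means were 3.31, 3.25 and 3.18, both mutants being above wild type at these times. Poly-A spike-in controls averaged 5.57, 5.64 and 5.87 on day 0 in that order. Their part in the plastid results was not tested. Centring the arrays on these spike-ins moved the median of all genes to 0.27, 0.17 and 0.05 for upf1-1 over wild type by day, and to 0.21, 0.25 and 0.09 for upf3-1. On that scale 49, 43 and 15 plastid genes were called against wild type in upf1-1 by day, and 16, 36 and 13 in upf3-1, all higher. Most calls over all genes were higher there too. In upf1-1 these were 2964 of 3036, 1474 of 1641 and 896 of 1098 by day. In upf3-1 they were 1659 of 1722, 2860 of 2974 and 1070 of 1234.

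**Figure D2:**
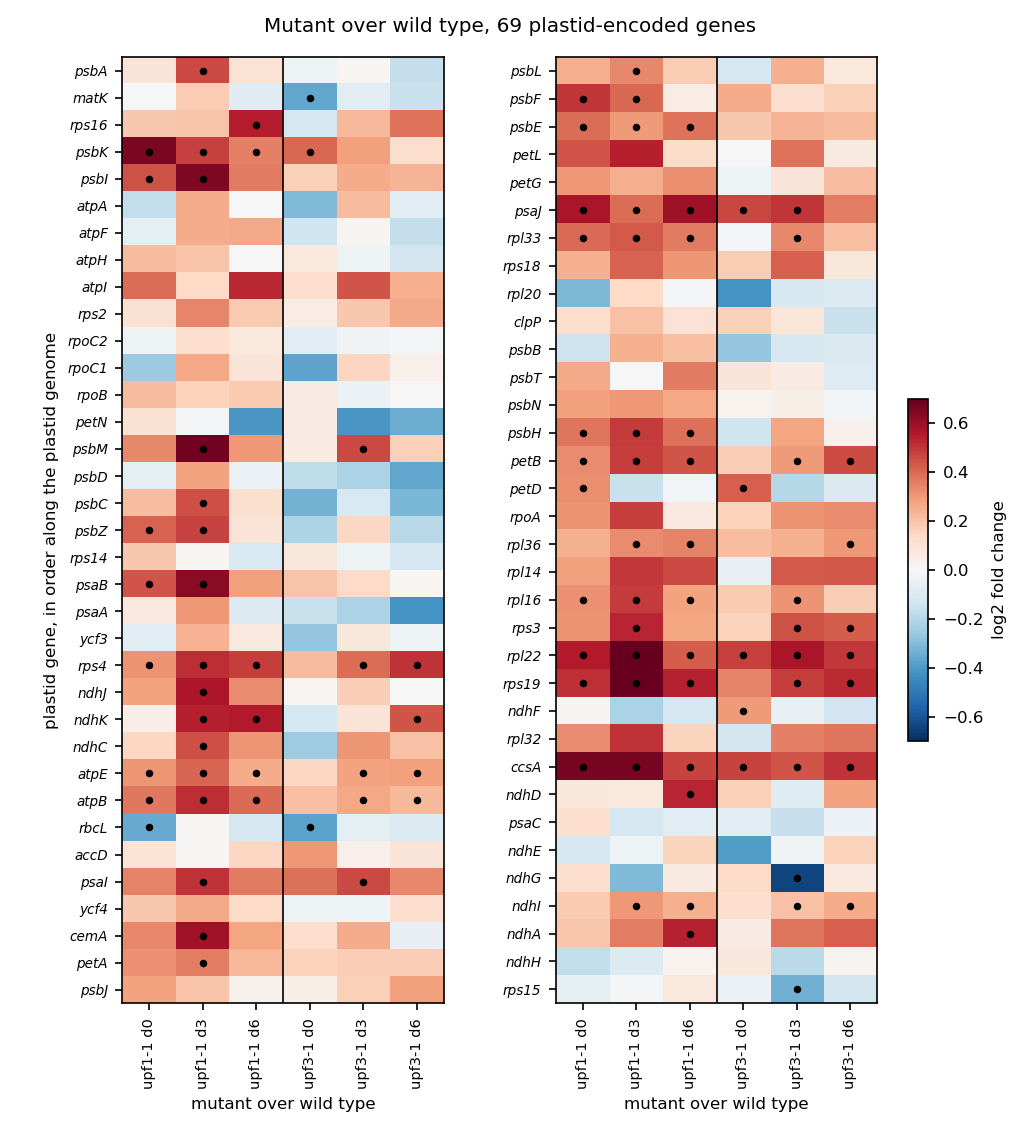
Log2 fold change of the 69 plastid genes (rows, in order along the plastid genome) in each mutant over wild type on days 0, 3 and 6 (columns). Red is higher and blue lower in the mutant, and black dots mark genes called at a limma adjusted p under 0.05. Dots are most numerous in the upf1-1 day 3 column, with 30, and rpl22 and ccsA are dotted in all 6 columns.

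Photosystem I passes electrons from plastocyanin to ferredoxin. Its reaction centre subunit gene psaB measured 10.50, 10.27 and 10.42 in upf1-1, against 9.67, 9.84 and 9.78 in wild type on day 3. The arrays did not overlap, and the log2 difference was 0.63 (SE 0.13, limma adjusted p = 0.000732). On day 0, psaB measured 10.78, 10.42 and 10.44 in upf1-1, against 10.27, 10.13 and 9.92 in wild type, a difference of 0.44 (adjusted p = 0.0161) that was 0.32 without upf1-1 day 0 replicate 1 (adjusted p = 0.121). Its day 6 difference of 0.29 was not called, and in upf3-1 psaB stood at 0.20, 0.14 and 0.01. The small subunit gene psaJ was called higher in upf1-1 on all 3 days, by 0.57, 0.39 and 0.59, and in upf3-1 by 0.47 on day 0 and 0.50 on day 3. Of these, the upf1-1 day 3 call was kept without 1 of the 6 arrays only, and the upf3-1 day 0 call without 2. The other reaction centre gene, psaA, lies next to psaB and was called in none of the 6 comparisons, with values of 0.07, 0.30 and -0.09 in upf1-1 and -0.16, -0.22 and -0.42 in upf3-1.

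Photosystem II splits water. Of its 15 measured genes, 6, 10 and 3 were called higher in upf1-1 on days 0, 3 and 6, and 1, 1 and 0 in upf3-1. Averaged over the 6 comparisons with wild type, the largest change of the 15 was that of psbK, a small core subunit. It measured 10.54, 10.38 and 10.38 in upf1-1, against 9.88, 9.70 and 9.74 in wild type on day 0, a difference of 0.66 (SE 0.11, limma adjusted p = 0.00019). The 2 groups were apart by more than either one's range. On day 3 psbK was higher in upf1-1 by 0.48 and on day 6 by 0.36, where the arrays overlapped and the call was kept without 2 of the 6 arrays. In upf3-1 it was called on day 0 only, by 0.40, a call kept without 3 of the 6 arrays.

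Of the genes for the large photosystem II proteins, psbA and psbC were called once each against wild type. The D1 protein gene psbA measured 6.45, 6.44 and 6.45 in upf1-1, against 6.01, 6.08 and 5.89 in wild type on day 3, a difference of 0.46 (SE 0.12, limma adjusted p = 0.00857) with no overlap. On days 0 and 6 its differences were 0.09 and 0.10, not called. The antenna gene psbC was called on day 3 by 0.45, and lost the call without 2 of the 6 arrays; leaving out wild type day 3 replicate 3 gave the highest adjusted p, 0.114. The D2 gene psbD and the antenna gene psbB were called in none of the 6 comparisons of a mutant with wild type, with values from -0.36 to 0.28 and from -0.27 to 0.25. Among small subunits, psbE and psbH were called in upf1-1 on all 3 days, psbI, psbF and psbZ on days 0 and 3, and psbM and psbL on day 3. Of these calls, those of psbE on day 0 and of psbH, psbI and psbM on day 3 were kept whichever array was left out. Of the small subunits, psbM was the largest at 0.68 on day 3 (SE 0.13, limma adjusted p = 0.000609), and it was also called in upf3-1 that day, by 0.46, a call kept without 3 of the 6 arrays.

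The cytochrome b6f complex links the photosystems. Its gene petB, for cytochrome b6, measured 10.72, 10.92 and 10.95 in upf1-1, against 10.45, 10.43 and 10.27 in wild type on day 3, and 10.93, 10.97 and 10.93 against 10.34, 10.74 and 10.43 on day 6. These groups did not overlap, with differences of 0.48 and 0.44. On day 0 petB was higher by 0.33 in upf1-1, a call kept without 3 of the 6 arrays. In upf3-1, petB measured 10.94, 11.02 and 10.92 on day 6, a difference of 0.46 from wild type (SE 0.10, limma adjusted p = 0.00157), and on day 3 it was called at 0.30. The cytochrome f gene petA was called in upf1-1 on day 3, by 0.36, a call kept without 1 of the 6 arrays. The low-signal petD was called higher on day 0 in upf1-1 by 0.32, a call lost whichever array was left out, and in upf3-1 by 0.42, a call kept without 4 of the 6 arrays. The genes petN, petL and petG were called in none of the 6 comparisons.

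The ATP synthase makes ATP from the proton gradient across the thylakoid membrane. Its catalytic beta subunit gene atpB measured 12.13, 11.94 and 12.05 in upf1-1, against 11.71, 11.73 and 11.56 in wild type on day 0. It measured 11.90, 12.02 and 11.82 against 11.43, 11.51 and 11.24 on day 3, and 12.06, 12.12 and 11.89 against 11.59, 11.61 and 11.68 on day 6. The groups were apart on each day, with differences of 0.37, 0.51 and 0.40 (SE 0.079, limma adjusted p = 0.00156, 3.63e-05 and 0.000745), and each call was kept whichever array was left out. The neighbouring epsilon subunit gene atpE was higher by 0.31, 0.41 and 0.26, calls kept without 4, 6 and 3 of the 6 arrays. In upf3-1, atpB was called at 0.27 on day 3 and 0.23 on day 6, calls kept without 4 and 0 of the 6 arrays, and atpE at 0.28 and 0.29, calls kept without 6 and 5. The alpha, b, c and a subunit genes atpA, atpF, atpH and atpI, which form another cluster with rps2, were called in none of the 6 comparisons, with atpA at -0.17, 0.26 and 0.00 in upf1-1.

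**Figure D3:**
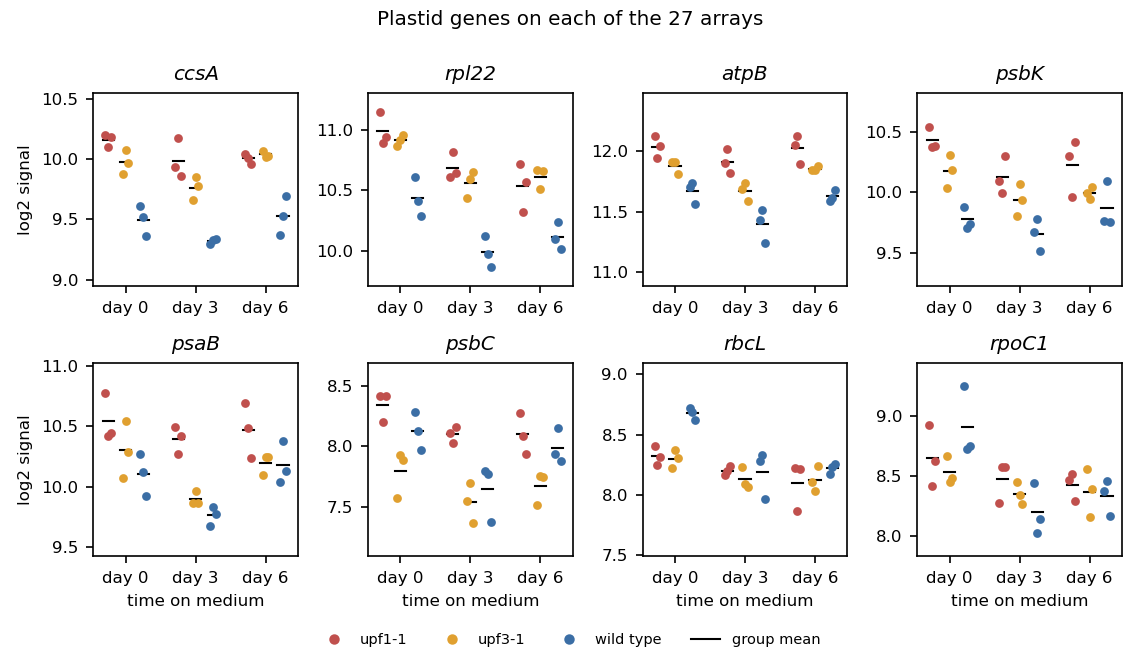
Log2 signal (vertical axis, 1.6 units in each panel) of 8 plastid genes on each array by day (horizontal axis); points are arrays coloured by genotype and black lines are group means. The upf1-1 arrays lie above wild type for ccsA, rpl22 and atpB on all 3 days, psbC was called lower in upf3-1 than in upf1-1 on days 0 and 3, and rbcL is separated on day 0 only, with both mutants below wild type.

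The NDH complex takes part in electron flow around photosystem I. None of its 10 genes was called in upf1-1 on day 0, and 4 were called higher on each of days 3 and 6. The subunit genes ndhK and ndhI were called on both days, by 0.54 and 0.56 for ndhK and 0.30 and 0.25 for ndhI, ndhJ and ndhC on day 3, and ndhD and ndhA on day 6. Of these, the day 3 call of ndhI and the day 6 call of ndhD were kept whichever array was left out. In upf3-1, ndhI was called on days 3 and 6, ndhK on day 6 and the low-signal ndhF on day 0, calls kept without 1, 5, 2 and 4 of the 6 arrays. The gene ndhG went the other way on day 3. It measured 4.77, 5.14 and 4.70 in upf3-1, against 5.37, 5.63 and 5.53 in wild type, with no overlap and a difference of -0.64 (SE 0.15, limma adjusted p = 0.0034). In upf1-1 its day 3 difference of -0.31 was not called, and on days 0 and 6 it lay between 0.06 and 0.13 in both mutants.

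The large subunit gene of Rubisco, rbcL, was the only photosynthesis gene called lower in both mutants, on day 0. It measured 8.40, 8.25 and 8.31 in upf1-1 and 8.22, 8.37 and 8.31 in upf3-1, against 8.72, 8.69 and 8.62 in wild type. The wild type arrays were above all 6 mutant arrays. The differences were -0.35 (SE 0.094, limma adjusted p = 0.0102) and -0.37 (adjusted p = 0.00768), and both share the wild type arrays. The upf1-1 difference was -0.39 without replicate 1 of upf1-1 (adjusted p = 0.0151), and its adjusted p was 0.0516 without replicate 2. On days 3 and 6 rbcL lay between -0.12 and 0.01 in both mutants and was not called.

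The 4 genes of the plastid RNA polymerase, rpoA for the alpha subunit, rpoB for beta, and rpoC1 and rpoC2 for the beta′ parts, were called in none of the 6 comparisons by limma. At an unadjusted p under 0.05, 1 was below it on day 3 in upf1-1 and 1 on day 0 in upf3-1, and 0 in the other comparisons. Of all 13286 genes, 3756 were below it in upf1-1 on day 3 and 3707 in upf3-1 on day 0. The gene rpoC1 measured 8.92, 8.42 and 8.62 in upf1-1 and 8.67, 8.45 and 8.48 in upf3-1, against 9.25, 8.72 and 8.75 in wild type on day 0, with differences of -0.25 and -0.37 and overlap of upf1-1 with wild type. On day 3 its differences were 0.27 and 0.15. The gene rpoA, which lies at the end of a ribosomal protein cluster, stood at 0.32, 0.49 and 0.07 in upf1-1, and its upf1-1 day 6 arrays spread from 9.86 to 11.03. The median of the 4 genes in upf1-1 was 0.09, 0.22 and 0.08, beside 0.27, 0.31 and 0.25 for the 43 photosynthesis genes and 0.29, 0.43 and 0.31 for the 15 ribosome genes. In upf3-1 the medians by day were -0.01, 0.06 and 0.02 for the polymerase genes. They were 0.06, 0.14 and 0.07 for the photosynthesis genes and 0.08, 0.34 and 0.31 for the ribosome genes. Whether the classes differ was not tested.

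Among the ribosomal protein genes, 5, 7 and 7 of 15 were called higher in upf1-1 on days 0, 3 and 6, and 1, 6 and 5 in upf3-1. The large-subunit gene rpl22 was called in all 6 comparisons. On day 0 it measured 11.15, 10.89 and 10.94 in upf1-1 and 10.86, 10.92 and 10.96 in upf3-1, against 10.61, 10.41 and 10.29 in wild type. On day 3 it measured 10.61, 10.81 and 10.64 in upf1-1 and 10.44, 10.59 and 10.65 in upf3-1, against 10.12, 9.97 and 9.87. On day 6 it measured 10.72, 10.33 and 10.57 in upf1-1 and 10.67, 10.51 and 10.66 in upf3-1, against 10.10, 10.24 and 10.01. Every mutant array was above every wild type array of its day. By day, upf1-1 was higher by 0.55, 0.70 and 0.42 and upf3-1 by 0.48, 0.57 and 0.50 (SE 0.10, highest limma adjusted p = 0.00512), and each call was kept whichever array was left out.

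The small-subunit genes rps19 and rps4 kept all their calls against wild type whichever array was left out. The gene rps19 was higher in upf1-1 by 0.51, 0.69 and 0.54, and in upf3-1 by 0.34, not called, 0.48 and 0.52. The gene rps4 was higher in upf1-1 by 0.31, 0.52 and 0.48, and in upf3-1 by 0.39 on day 3 and 0.50 on day 6. It measured 10.93, 11.12 and 11.01 in upf3-1, against 10.45, 10.61 and 10.50 in wild type on day 6, with no overlap. The genes rpl33 and rpl16 were also called in upf1-1 on all 3 days, between 0.28 and 0.49; only the day 3 call of rpl16 was kept whichever array was left out. Of the 15, rpl14, rpl20, rpl32, rps2, rps14 and rps18 were called in none of the 6 comparisons, and rps15 was called lower once, in upf3-1 on day 3, by -0.34 (adjusted p = 0.0685 without wild type day 3 replicate 3).

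Of the 7 remaining genes, ccsA was called in all 6 comparisons. The gene ccsA, for a protein that attaches haem to c-type cytochromes, measured 10.20, 10.10 and 10.18 in upf1-1 and 9.87, 10.08 and 9.97 in upf3-1, against 9.61, 9.52 and 9.36 in wild type on day 0. On day 3 it measured 9.93, 10.17 and 9.86 in upf1-1 and 9.66, 9.85 and 9.78 in upf3-1, against 9.30, 9.33 and 9.34. On day 6 it measured 10.04, 10.01 and 9.96 in upf1-1 and 10.07, 10.02 and 10.02 in upf3-1, against 9.37, 9.53 and 9.69. No mutant array reached down to a wild type array of its day. By day, upf1-1 was higher by 0.66, 0.67 and 0.47 and upf3-1 by 0.47, 0.44 and 0.51 (SE 0.087), with limma adjusted p between 4.14e-06 and 0.000575, and each call was kept whichever array was left out.

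Of the other 6, the envelope protein gene cemA was called in upf1-1 on day 3, by 0.59, a call kept without 4 of the 6 arrays. The acetyl-CoA carboxylase gene accD, the protease gene clpP and the photosystem I assembly genes ycf3 and ycf4 were called in none of the 6 comparisons, with accD between 0.01 and 0.31 and clpP between -0.16 and 0.21. The intron maturase gene matK was called lower in upf3-1 on day 0, by -0.36, where the arrays overlapped and the call was kept without 2 of the 6. In upf1-1 it stood at 0.00, 0.18 and -0.09.

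**Figure D4:**
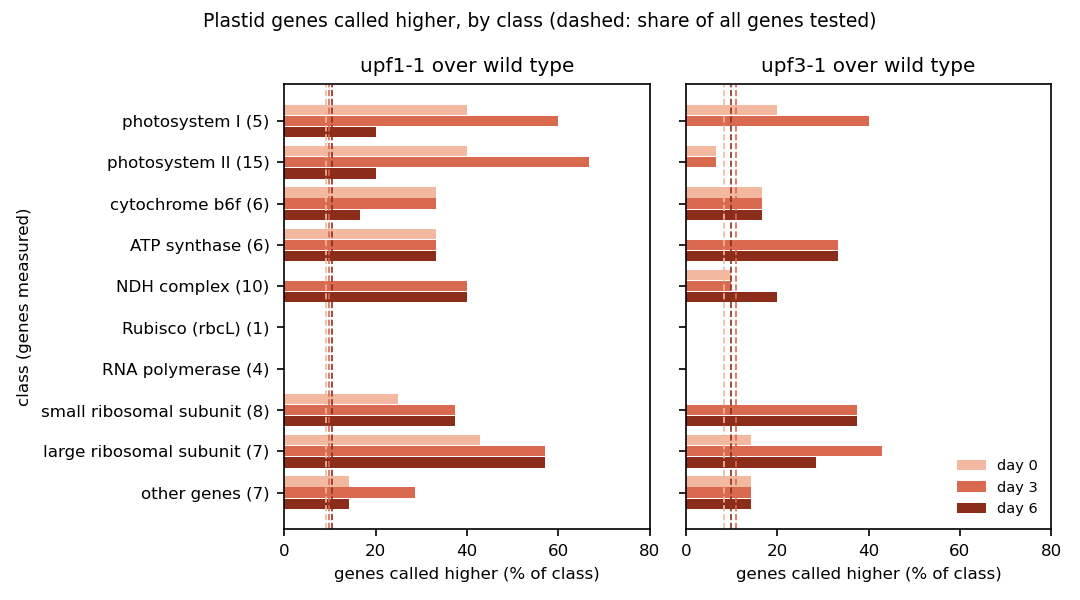
Share of each class of plastid genes called higher than wild type (horizontal axis, percent; number of genes measured in brackets), in upf1-1 (left) and upf3-1 (right), by day; dashed lines mark the share of all 13286 genes called higher on the same day. In upf1-1, 10 of 15 photosystem II genes were called on day 3, and in both mutants 0 of 4 RNA polymerase genes were called. With 4 genes, a count of 0 is near the share of all genes.

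Some genes were called in upf1-1 on all 3 days and others never. Called higher on all 3 days were 13 genes, psbK, rps4, atpE, atpB, psbE, psaJ, rpl33, psbH, petB, rpl16, rpl22, rps19 and ccsA. Of the 13, rps4, atpB, rpl22, rps19 and ccsA kept the call on all 3 days whichever array was left out. In upf3-1 the 2 such genes were rpl22 and ccsA, which belong to the 13. On at least 1 day, 34 genes were called higher in upf1-1 and 19 in upf3-1, and 30 were called in neither mutant on any day. These counts over several days were not taken for all genes, so whether they exceed the share of all genes is not known. The 4 genes called lower at least once were matK, rbcL, ndhG and rps15. The 2 mutants share the wild type arrays, so their calls are not independent. Of the 35 members with the higher mean signal, 23 were called in upf1-1 on day 3, and of the other 34, 7 were.

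Neighbouring genes that are transcribed together did not always give like values. Within the psbB cluster in upf1-1 on day 3, psbB stood at 0.25 and was not called, while psbH and petB were called at 0.49 and 0.48 and the low-signal petD stood at -0.15. Within psbD, psbC and psbZ the values were 0.28, 0.45 and 0.47, with the last 2 called. In the ribosomal protein cluster that ends in rpoA, rps19, rpl22, rps3, rpl16 and rpl36 were called at 0.69, 0.70, 0.54, 0.49 and 0.33, and rpl14 and rpoA, at 0.50 and 0.49, were not. In the cluster of rpoB, rpoC1 and rpoC2 none was called, at 0.16, 0.27 and 0.12. These probe sets differ in signal and in where they lie on the RNA, and the differences between neighbours were not tested.

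Set directly against upf1-1, on day 0, 4 of the 69 genes were called lower in upf3-1 and 0 higher, beside 1.79% and 2.05% of all genes (3.84% in either direction). On day 3, 7 were lower and 0 higher, beside 3.55% and 4.38% (7.93% in either direction). On day 6 none was called by limma, beside 0.986% of all genes lower and 1.26% higher (2.24% in either direction). At an unadjusted limma p under 0.05 there were 13 plastid genes on day 6, beside 2070 of all 13286 genes. The medians of the 69 were -0.16, -0.16 and -0.10. The gene psbC was called on days 0 and 3. It measured 7.57, 7.93 and 7.89 in upf3-1, against 8.41, 8.20 and 8.42 in upf1-1 on day 0, and 7.55, 7.69 and 7.37 against 8.11, 8.03 and 8.16 on day 3. The groups were apart on both days, with differences of -0.55 and -0.56 (SE 0.13, limma adjusted p = 0.013 and 0.00643).

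The other day 3 genes were psaA at -0.53, psbD at -0.50, psaB at -0.50, ndhK at -0.45, psbA at -0.44 and rps15 at -0.33. On day 0 they were psbZ at -0.63, psbH at -0.51 and rpl33 at -0.41. None of these 11 calls was kept whichever array was left out. Without upf1-1 day 0 replicate 1 or without upf3-1 day 0 replicate 1, 0 genes were called on day 0, and without upf3-1 day 0 replicate 2 there were 2. On day 3, 0 were called without upf3-1 replicate 3, 1 without upf3-1 replicate 1, 2 without upf1-1 replicate 1 or 3, and 3 without upf1-1 replicate 2. With arrays centred on the spike-ins, 3 and 0 were called on days 0 and 3, beside 167 and 453 of all 13286 genes. With arrays centred on reference genes, 3 and 2 were called, beside 474 and 939.

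Between days, the plastid genes called in each genotype were nearly all lower than on day 0 on the deposited scale, while with the arrays centred on spike-ins the day 6 medians turned positive. In wild type, 20 of the 69 were lower on day 3 and 13 on day 6, and 0 were higher, beside 15.6% and 19.2% of all genes lower and 12.9% and 14.4% higher (28.5% and 33.6% in either direction). In upf1-1, 5 and 8 plastid genes were lower and 0 higher, beside 11.2% and 15.7% of all genes lower and 10.3% and 13.4% higher (21.5% and 29.1% in either direction). In upf3-1, 10 and 11 were lower and 0 higher, beside 17.9% and 21.7% lower and 13.6% and 17.2% higher (31.5% and 38.9% in either direction). The lower calls were thus a larger share of the plastid genes than of all genes in wild type on day 3, near the share of all genes in wild type on day 6, and below it in both mutants. The medians on days 3 and 6 were -0.13 and -0.16 in upf1-1, -0.16 and -0.11 in upf3-1, and -0.26 and -0.16 in wild type. Spike-in signal itself fell with time, to 5.14 in upf1-1, 5.09 in upf3-1 and 5.21 in wild type on day 6. Centred on it, the day 6 medians were 0.27, 0.44 and 0.51, beside medians over all genes of 0.42, 0.52 and 0.64.

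Among the genes that fell in wild type were 2 of the polymerase. On day 0 rpoC1 measured 9.25, 8.72 and 8.75, by day 3 it measured 8.44, 8.03 and 8.14, and its day 6 arrays gave 8.38, 8.46 and 8.17. Both later groups lay below day 0, at -0.70 and -0.57 (SE 0.14, limma adjusted p = 0.000564 and 0.00306), and rpoC2 was called on both days too, at -0.39 and -0.45. With spike-in centring the day 6 value of rpoC1 was 0.10. The day 0 arrays gave 8.72, 8.69 and 8.62 for rbcL, those of day 3 gave 8.28, 8.33 and 7.96 and those of day 6 gave 8.18, 8.23 and 8.26, with no overlap and differences of -0.48 and -0.45. Also called lower on both days in wild type were matK, rps2, ycf3, rpl36 and rpl22, which with the 3 above makes 8 genes. The same count was not taken for all genes.

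The large-subunit gene rpl36 and rpl22 were called lower on days 3 and 6 in all 3 genotypes. On day 6 rpl36 measured 9.79, 9.69 and 9.94 in upf1-1, against 10.34, 10.19 and 10.13 on day 0, and it was lower by -0.41 in upf1-1, -0.42 in upf3-1 and -0.51 in wild type. With spike-in centring these became 0.02, 0.13 and 0.16. The wild type counts depended on single arrays. Without wild type day 0 replicate 1, 11 were called on day 3 and 4 on day 6. Without wild type day 3 replicate 3, 12 were called on day 3, and on day 6 the count was 6 without wild type day 6 replicate 3 and 20 without wild type day 0 replicate 3.

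The mutants' time counts depended on single arrays too. In upf1-1, 2 were called on day 3 without day 0 replicate 1, of which 1 was higher, 2 without day 0 replicate 2 and 1 without day 3 replicate 1. On day 6, 4 were called without day 0 replicate 1, of which 1 was higher, 5 without day 6 replicate 2 and 16 without day 6 replicate 1. The maturase gene matK, at -0.48 on day 6 in upf1-1, was called whichever array was left out. In upf3-1 on day 6, the largest decrease among calls kept whichever array was left out was that of accD, at -0.47 (SE 0.11, limma adjusted p = 0.00158), but with spike-in centring it stood at 0.07. The upf3-1 counts were 3 to 5 on day 3 without day 0 replicate 2, day 3 replicate 1 or day 3 replicate 3, and 4 to 7 on day 6 without day 0 replicate 2, day 0 replicate 3 or day 6 replicate 2.

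From day 3 to day 6 few plastid genes changed. In upf1-1, psaJ alone was higher on day 6, by 0.47, beside 1.87% of all genes higher and 1.25% lower (3.12% in either direction). In upf3-1, rps4 alone was higher, by 0.26, beside 4.14% higher and 4.09% lower (8.23% in either direction). In wild type atpA was higher by 0.43 and ndhG stood at -0.57, beside 2.95% higher and 2.21% lower (5.16% in either direction). None of these 4 calls was kept whichever array was left out. With spike-in centring, 8, 7 and 54 plastid genes were called in upf1-1, upf3-1 and wild type. Of all 13286 genes, 1502, 1502 and 8571 were called on that scale.

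No plastid gene changed differently over time in a mutant than in wild type by limma, where 0.241% and 0.452% of all genes were called for upf1-1 on days 3 and 6 and 0.662% and 0.361% for upf3-1. At an unadjusted p under 0.05 there were 7 and 5 plastid genes for upf1-1, and 13 and 8 for upf3-1. Over all 13286 genes the same counts were 1241 and 1291 for upf1-1, and 1814 and 1538 for upf3-1. The plastid medians of the differences in change were 0.12 and 0.01 for upf1-1 and 0.12 and 0.07 for upf3-1. The differences between genotypes given above are therefore not shown to differ between days.

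Nuclear genes for subunits of the same complexes were set beside the plastid genes. Of 31 listed nuclear genes of the photosystems and ATP synthase, 5 were measured with 1 symbol, and all 5, PSBY, PSBW, PSAN, PSAE-1 and ATPC1, were called higher in both mutants on all 3 days. Their median was 1.13, 1.09 and 0.66 in upf1-1 and 0.64, 0.84 and 0.74 in upf3-1, beside 0.27, 0.31 and 0.25 in upf1-1 and 0.06, 0.14 and 0.07 in upf3-1 for the 43 plastid photosynthesis genes. The small photosystem II gene PSBW measured 8.77, 8.73 and 8.64 in upf1-1 and 8.25, 8.47 and 8.29 in upf3-1, against 7.06, 7.26 and 7.50 in wild type on day 0. The 3 groups did not overlap, and the differences from wild type were 1.44 (SE 0.17, limma adjusted p = 1.3e-06) and 1.06 (adjusted p = 6.68e-05). In wild type all 5 were called higher on day 6 than on day 0, with a median of 1.06, and 0 on day 3, while the 43 plastid photosynthesis genes had medians of -0.08 on day 6 and -0.24 on day 3, on a scale where spike-in centring turned the day 6 median of the 69 genes. A test of nuclear against plastid genes was not made.

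Nuclear genes for the ribosome and for transcription were also listed. Of 8 measured nuclear genes of the plastid ribosome, 0, 1 and 0 were called higher in upf1-1 and 0, 2 and 3 in upf3-1 on the 3 days. The phage-type polymerase gene AT5G15700, which codes for the enzyme shared by plastids and mitochondria, was called higher in upf1-1 on days 0 and 3, by 0.36 and 0.26, and in upf3-1 on day 0, by 0.24. Of the listed sigma factor genes and polymerase-associated protein genes 0 were measured with 1 symbol. For another organelle, 11 mitochondrial genes matched by symbol had median differences of 0.33, 0.14 and 0.01 in upf1-1 and 0.02, -0.35 and -0.34 in upf3-1.

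**Figure D5:**
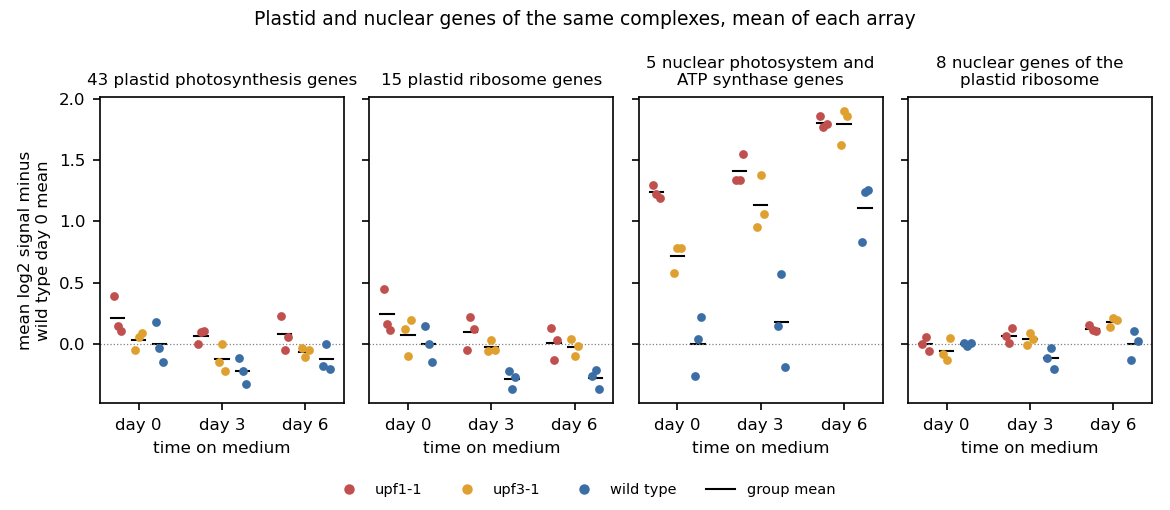
Mean log2 signal of each array minus the wild type day 0 mean (vertical axis) for 43 plastid photosynthesis genes, 15 plastid ribosome genes, 5 nuclear photosystem and ATP synthase genes and 8 nuclear genes of the plastid ribosome, by day (horizontal axis); points are arrays coloured by genotype, black lines group means. The nuclear photosystem genes spread most, with all upf1-1 arrays above all wild type arrays of their day. With spike-in centring, the median change of the 69 plastid genes from day 0 to day 6 turned positive in each genotype.

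Over the 9 group means, most plastid genes followed their common mean. The correlation of a member with the mean of the 69 had a median of 0.75, beside 0.03 for all genes. That mean contains the member itself, which raises the members' values, and the points share the arrays' scaling. Left out of the mean itself, petN stood at -0.14, ndhF at -0.09, ndhG at 0.15, petD at 0.20 and rbcL at 0.25. The genes outside the plastid closest to the mean were AT5G38290, AT5G17570 and AT1G17630, with r between 0.95 and 0.96 over 9 group means. Of the 100 genes with the highest r to the mean of the 69, 13 were plastid genes, which are part of that mean.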

How the data were processed

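Each deposited value is the log2 signal of a probe set. The submitters' processing notes name RMA, which subtracts background, brings all arrays to 1 distribution and summarises probes. Its version was not given in the sources used here. RNA was labelled as biotinylated cRNA from total RNA, per the labels' protocols, which do not state the priming. A second deposited table held identical values. The array holds 22810 probe sets, of which 64 are controls; 13513 have 1 gene symbol, 503 several and 8794 none. Probe sets that list several gene entries were left out, as were genes without a locus in the gene table. The probe set with the highest mean stood for a gene, which left 13286. RefSeq names (TAIR10.1) gave the plastid loci, and the start positions listed with them gave their order. No sequences were used. A linear model with 1 mean for each of 9 groups was fitted to 27 arrays with limma 3.58.1 (R 4.3.3, statmod 1.5.0; lmFit and eBayes), and 22 contrasts were tested, two-sided, with Benjamini-Hochberg adjustment over all genes. The number of arrays limits the precision.

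The members, the lists of nuclear genes and the tests were chosen with earlier results of these data known. Named genes are up to 4 highest and 4 lowest called members of each contrast, the highest and lowest of each class by mean change over the 6 comparisons with wild type, and a set of well-known plastid genes; others were named after their values were seen. Same-numbered replicates of different groups did not deviate together: 23 of 108 pairs had r over 0.1 and the median was -0.01, so the numbers do not pair samples. The alternatives were the second table, only the groups compared, a replicate block, centring on spike-ins or on 6 reference genes, leaving out low signals or cross-hybridising probe sets, the mean of a gene's probe sets, eBayes with trend and robust settings, and leaving out each array. Day 6 comes from the sample labels, since the design text names days 0 and 3 only. The fit was tested on simulated data.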

Additional observations from a re-analysis of the deposited data

Results flagged for a closer look

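The results here are plastid genes whose level in upf3-1 differed from that in upf1-1 by a test of the difference itself (limma, adjusted p under 0.05 over all genes), which is also the difference between the 2 mutants' effects against wild type. On day 0 these were psbC at -0.55, psbZ at -0.63, psbH at -0.51 and rpl33 at -0.41. On day 3 they were psbC at -0.56, psaA at -0.53, psbD at -0.50, psaB at -0.50, ndhK at -0.45, psbA at -0.44 and rps15 at -0.33, and on day 6 there was none. All 11 were lower in upf3-1. At an unadjusted limma p under 0.05 there were 13 plastid genes on day 6, beside 2070 of all 13286 genes. Against wild type, psbC was not called in upf3-1 on any day, at -0.33, -0.11 and -0.32, and psaA not in either mutant. For psbC on day 3 the adjusted p rose to 0.0501 without upf3-1 day 3 replicate 3, and the other 10 lost the call without at least 1 array. No group of 4 or more arrays exists, so single arrays could not be tested as outliers.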

How the results depend on the processing

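Of 198 counts of called plastid genes under other settings, 167 were within 1.5 times of the count given. Centring on spike-ins brought the median of all genes to as much as 0.64. It gave 49 calls for upf1-1 over wild type on day 0, beside 3036 among all 13286 genes. For upf3-1 over wild type it gave 16 and 36 on days 0 and 3, beside 1722 and 2974. For upf3-1 over upf1-1 on day 3 it gave 0, beside 453. Over time it gave 1, 27 and 8 in upf1-1 (day 3 over day 0, day 6 over day 0, day 6 over day 3), 6, 45 and 7 in upf3-1 and 3, 54 and 54 in wild type. Among all genes, in the same order, it gave 1547, 8777 and 1502 in upf1-1. The all-gene calls were 4384, 10349 and 1502 in upf3-1, and 3286, 11713 and 8571 in wild type. It reversed the median over time to 0.00203, 0.27 and 0.26 in upf1-1, to 0.14 and 0.44 on days 3 and 6 in upf3-1 and to 0.51 on day 6 in wild type, and that of the upf1-1 minus wild type change to day 6 to -0.23. On day 6 over day 0 it changed the sign of accD (0.0732), ndhF (0.13) and rpl36 (0.13) in upf3-1, rpl36 (0.0194) in upf1-1, and rpl20 (0.0768), rpl36 (0.16) and rpoC1 (0.10) in wild type. None of these was called on that scale. The medians over all genes there were 0.42 in upf1-1, 0.52 in upf3-1 and 0.64 in wild type. Centring on reference genes gave 3, 4 and 0 in upf1-1 and 5, 7 (2 of them higher) and 2 in upf3-1 over time, 2 for upf3-1 over upf1-1 on day 3 and 18 for upf3-1 over wild type on day 6. Over all genes, in the same order, it gave 2705, 3656, 328, 3967, 5045, 1053, 939 and 2398. Of the 2398, 1928 were higher, with an all-gene median of 0.07. Without this centring, 1305 of 2443 were higher, with a median of -0.02. Fitting only the groups compared gave 11 for upf1-1 and 4 for upf3-1 over wild type on days 6 and 0, 4 for upf3-1 over upf1-1 on day 3, 5 for upf1-1 on day 6 over day 0, and 0 and 1 for upf3-1 and wild type on day 6 over day 3. Trend and robust settings gave 1 for upf3-1 over upf1-1 on day 6 and 3 for upf3-1 on day 6 over day 3, which was 2 without low-signal genes. The replicate block, though numbers do not pair the samples (6 of 27 arrays were nearest an array of their own number), gave 0 for upf1-1 on day 6 over day 3, and no other count moved over 1.5 times. The causes were not tested.

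Leaving out each array in turn gave 10 to 21, 17 to 27 and 10 to 22 calls for upf1-1 over wild type on days 0, 3 and 6, 3 to 11, 8 to 20 and 7 to 13 for upf3-1 over wild type, and 0 to 6, 0 to 7 and 0 to 1 for upf3-1 over upf1-1. Over time (day 3 over day 0, day 6 over day 0, day 6 over day 3) it gave 1 to 6, 4 to 16 and 0 to 0 in upf1-1, 3 to 12, 4 to 11 and 0 to 3 in upf3-1, and 11 to 22, 4 to 20 and 0 to 3 in wild type. For the differences in change it gave 0 to 0 for upf1-1 on both days, and 0 to 2 and 0 to 1 for upf3-1 on days 3 and 6. Counts over all genes are not given for these fits.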
